A study of Mus musculus with 7 samples.

Results

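The 7 schlafen genes Slfn1, Slfn2, Slfn3, Slfn4, Slfn5, Slfn8 and Slfn9 were examined in mouse lung CD11b+ conventional dendritic cells (cDC2s) after treatment with house dust mite extract. They were taken by gene symbol from the platform annotation, among 19938 genes with a probeset of their own. Each of the 7 had exactly 1 such probeset, and a probeset would otherwise have been chosen by its mean brightness over the 7 arrays. The family itself was selected on earlier results from the same arrays, so its changes are given as measurements and are no independent evidence about the family. No probeset carried several symbols that included a Slfn name, but related members such as Slfn8, Slfn9 and Slfn10-ps may have probes in common, and which of them a value belongs to is uncertain.

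Schlafen proteins are a mammalian family with a shared amino-terminal domain that in several members binds or cuts transfer RNA. Short forms (Slfn1, Slfn2), intermediate forms (Slfn3, Slfn4) and long forms with a helicase-like part (Slfn5, Slfn8, Slfn9) are known in the mouse. Type I interferon induces many of them in immune cells, through the receptor kinases JAK1 and TYK2 and factors that include STAT2 and IRF9. IRF3 acts further upstream, where it switches on the interferon beta gene after innate sensing and can also act directly on some interferon-stimulated genes.

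Affymetrix Mouse Gene 1.0 ST arrays were hybridised with RNA from 7 pools, each of sorted CD11c+ MHC-II+ CD11b+ Ly6C- CD64- lung cells from 10 female mice on a C57Bl/6 background. The 3 groups were Irf3-deficient mice given 100 µg of house dust mite extract (HDM, 3 pools), wild type mice given the same dose (2 pools) and wild type mice given PBS (2 pools), all 12 hours before isolation. PBS-treated Irf3-deficient cells were not analysed here, so the resting level of a gene without Irf3 is unknown. The labels do not name the Irf3 allele, and pooling hides the spread between mice. The log2 expression values have no absolute zero, are compared for 1 gene between groups, and are not compared between genes.

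Irf3 went with the labels, at 8.26, 8.13 and 8.30 in the Irf3-deficient arrays, 9.59 and 9.57 in HDM-treated wild type and 9.48 and 9.56 in PBS-treated wild type. Which part of the gene its probes cover is not given in the sources used here. The 9 cDC2 markers averaged 12.09 to 12.21 in Irf3-deficient, 11.92 to 11.95 in HDM-treated and 12.22 in PBS-treated wild type arrays. Of these markers 3 fell (Itgam, Cd209a and Clec10a) and 1 rose (Zbtb46) in wild type after HDM, and 4 were higher and 1 lower in Irf3-deficient than in HDM-treated wild type cells. Itgam, which encodes the sort marker CD11b, measured 11.73 on average in Irf3-deficient, 11.01 in HDM-treated and 12.07 in PBS-treated wild type arrays. Within groups the arrays correlated at 0.995 to 0.997, and between groups at 0.973 to 0.990.

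The 7 genes lie side by side on chromosome 11, in the order Slfn5, Slfn9, Slfn8, Slfn2, Slfn1, Slfn4 and Slfn3, with Slfn10-ps between Slfn8 and Slfn2. Their promoter windows are shown first because the members moved together. The exact letter matches marked in them also differ between Slfn1 to Slfn4 and Slfn8 and Slfn9. RefSeq windows of 250 bases before and 50 after the transcript start (GRCm38.p6) were found for 7 of 7 members. In the first 4 lines the capitals mark a run of 9 bases, ACTTCCTGG, that is the longest present in all 4. It was found by comparing the windows after they were seen, and it holds the TTCC letters that ETS factors such as PU.1 recognise.
Slfn1 (chr11:83116570-83116869, plus strand): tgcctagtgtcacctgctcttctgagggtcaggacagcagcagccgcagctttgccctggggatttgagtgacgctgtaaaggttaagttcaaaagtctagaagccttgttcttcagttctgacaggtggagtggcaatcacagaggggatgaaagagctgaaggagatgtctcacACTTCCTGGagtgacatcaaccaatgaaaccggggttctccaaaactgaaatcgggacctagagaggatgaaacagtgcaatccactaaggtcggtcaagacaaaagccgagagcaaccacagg
Slfn2 (chr11:83064862-83065161, plus strand): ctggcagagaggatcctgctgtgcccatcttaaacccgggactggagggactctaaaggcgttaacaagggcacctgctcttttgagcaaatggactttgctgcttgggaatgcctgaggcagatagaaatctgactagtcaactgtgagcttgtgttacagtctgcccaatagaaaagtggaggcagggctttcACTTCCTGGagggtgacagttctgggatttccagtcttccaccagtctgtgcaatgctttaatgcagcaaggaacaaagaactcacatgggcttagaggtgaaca
Slfn3 (chr11:83191080-83191379, plus strand): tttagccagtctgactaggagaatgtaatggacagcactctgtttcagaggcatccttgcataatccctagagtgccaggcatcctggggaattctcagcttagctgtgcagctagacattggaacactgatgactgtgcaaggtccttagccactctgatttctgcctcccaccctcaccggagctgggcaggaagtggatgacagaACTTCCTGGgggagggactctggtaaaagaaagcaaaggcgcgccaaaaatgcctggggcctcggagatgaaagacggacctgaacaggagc
Slfn4 (chr11:83174936-83175235, plus strand): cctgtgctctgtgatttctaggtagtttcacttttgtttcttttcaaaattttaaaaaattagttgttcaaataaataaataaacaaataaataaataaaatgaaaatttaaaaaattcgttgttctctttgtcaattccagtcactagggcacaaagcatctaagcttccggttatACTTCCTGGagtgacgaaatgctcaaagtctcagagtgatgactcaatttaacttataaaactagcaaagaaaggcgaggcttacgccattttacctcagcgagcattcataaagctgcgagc
In the next lines the capitals mark an interferon-response core followed by CT, read on the strand opposite to the gene.
Slfn8 (chr11:83020761-83021060, minus strand): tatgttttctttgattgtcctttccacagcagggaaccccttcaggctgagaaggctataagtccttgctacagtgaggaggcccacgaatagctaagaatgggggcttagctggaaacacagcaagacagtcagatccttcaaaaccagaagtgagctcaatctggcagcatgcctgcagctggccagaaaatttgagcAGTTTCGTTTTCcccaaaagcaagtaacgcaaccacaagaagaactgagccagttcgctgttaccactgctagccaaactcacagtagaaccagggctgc
Slfn9 (chr11:82991781-82992080, minus strand): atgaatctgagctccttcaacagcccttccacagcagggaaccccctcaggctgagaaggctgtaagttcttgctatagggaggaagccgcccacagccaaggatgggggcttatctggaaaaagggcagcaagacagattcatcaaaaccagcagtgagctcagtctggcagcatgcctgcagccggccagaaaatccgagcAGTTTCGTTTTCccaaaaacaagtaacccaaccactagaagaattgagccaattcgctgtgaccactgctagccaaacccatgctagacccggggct

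Counted from the transcript start, the shared run began at -74 in Slfn1, at -55 in Slfn2, at -42 in Slfn3 and at -73 in Slfn4. On either strand it stood in 277 of 32851 windows of the same length (0.843%). It was absent from the first-listed windows of Slfn5, Slfn8 and Slfn9. It was picked as the longest run common to Slfn1 to Slfn4, so its presence there was fixed by the choice. The share over all windows is therefore no measure of how unusual the shared run is. Slfn1 and Slfn4 shared a longer stretch around it, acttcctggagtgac, of 15 bases. The interferon-response core GAAANNGAAA, searched on both strands, was found in 3 of 7 members (Slfn5, Slfn8 and Slfn9) and in 3.44% of all windows. Its longer spelling GAAANNGAAACT, which contains the core, was found in Slfn8 at -50 to -39 and in Slfn9 at -47 to -36, and in 0.271% of all windows. Slfn8 also had a further window, from another transcript start, in which the same match lay at -138 to -127. In Slfn5 the core match lay at -155 to -146 and read GAAAAAGAAA. The STAT-type palindrome TTCNNNGAA, searched as its own reverse complement, was in 0 of 7 members and in 8.30% of all windows. A match is only a match of letters within these windows. Only exact spellings were counted and near spellings were not searched, so a window without a match may still hold a near spelling. The windows of Slfn8 and Slfn9 were identical at 250 of 289 aligned bases (86.5%), and their longest shared run was 20 bases.

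**Figure D1:**
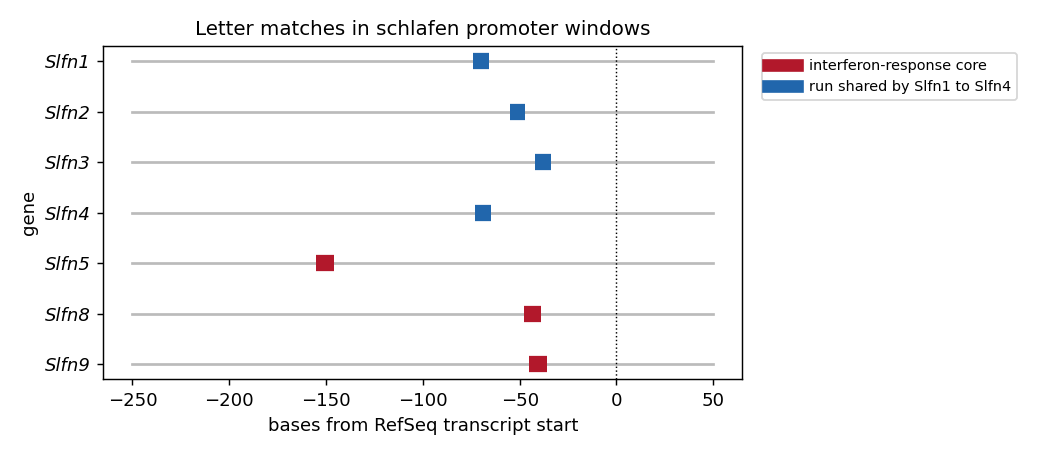
Letter matches in the first-listed RefSeq promoter window of each of the 7 members, with distance from the transcript start in bases on the x axis and 1 line per gene. Red bars are the interferon-response core and blue bars the 9-base run; the red bars stand only on the lines of Slfn5, Slfn8 and Slfn9, and the blue bars on those of Slfn1 to Slfn4.

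After HDM all 7 schlafen genes rose in wild type cDC2s, from 2.15-fold for Slfn2 to 28.8-fold for Slfn1. In this comparison 17.6% of all genes passed the test, 8.35% as higher and 9.23% as lower in the HDM arrays. The median log2 difference of the 7 was 2.46, beside 0.03 over all genes. For all 7 the HDM arrays lay entirely above the PBS arrays; over all genes, the groups did not overlap for 52.6%, and HDM was the upper group for 28.5%. A gene is said to rise or fall where its Benjamini-Hochberg adjusted p over 19938 genes in limma was under 0.05.

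Among the short members, Slfn1, the founding member of the family and a brake on the growth of mouse thymocytes when overexpressed, had log2 levels of 12.28 and 12.93 in HDM-treated wild type arrays and 8.02 and 7.50 in PBS-treated wild type arrays. It rose by 4.85 ± 0.27 (SE, 95% CI 4.26 to 5.43, adjusted p = 1e-07), which put it first among all genes by size of rise. The interval does not settle this rank, as it also covers the rises of Ifit3b (4.70), Slfn4 (4.66), Rsad2 (4.63) and Ifit2 (4.62). The replicates of Slfn1 were the most spread of the family in all 3 groups, yet the gap between the HDM and PBS arrays was 4.27. Slfn2, which keeps mouse T cells and monocytes quiescent, stood at 12.42 and 12.51 in HDM-treated and 11.27 and 11.46 in PBS-treated wild type arrays. It rose 2.15-fold (95% CI 1.80 to 2.55, adjusted p = 2.45e-05), and its groups were separated by 0.96. That interval lies wholly below those of the other 6 members.

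Among the intermediate members, Slfn4, a gene of mouse macrophage activation, measured 11.60 and 11.87 in HDM-treated and 7.02 and 7.12 in PBS-treated wild type arrays. It rose 25.3-fold (95% CI 20.6 to 31.2, adjusted p = 2.97e-09), and by size of rise it had rank 3 among all genes, which its interval does not settle. Its adjacent neighbour Slfn3, tied to enterocyte differentiation in the rat, measured 10.11 and 10.18 in HDM-treated and 7.87 and 8.08 in PBS-treated wild type arrays. It rose 4.50-fold (95% CI 3.59 to 5.63, adjusted p = 6.25e-07), and its groups were 2.03 apart.

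Among the long members, Slfn5, whose human counterpart restricts herpes simplex virus transcription, measured 13.17 and 13.24 in HDM-treated and 11.17 and 10.72 in PBS-treated wild type arrays, and rose 4.80-fold (95% CI 3.90 to 5.92, adjusted p = 2.37e-07). Slfn8 measured 11.36 and 11.60 in HDM-treated and 8.82 and 8.48 in PBS-treated wild type arrays, and rose 7.12-fold (95% CI 5.58 to 9.07, adjusted p = 1.24e-07). Slfn9 measured 10.56 and 10.93 in HDM-treated and 8.34 and 8.23 in PBS-treated wild type arrays, and rose 5.51-fold (95% CI 4.41 to 6.87, adjusted p = 1.95e-07). Slfn8 and Slfn9 belong to the long class that includes human SLFN11, a block to HIV protein synthesis. The intervals of the 3 long members and of Slfn3 overlapped one another, narrowly so between Slfn3 and Slfn8, and all 4 lay below those of Slfn1 and Slfn4.

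**Figure D2:**
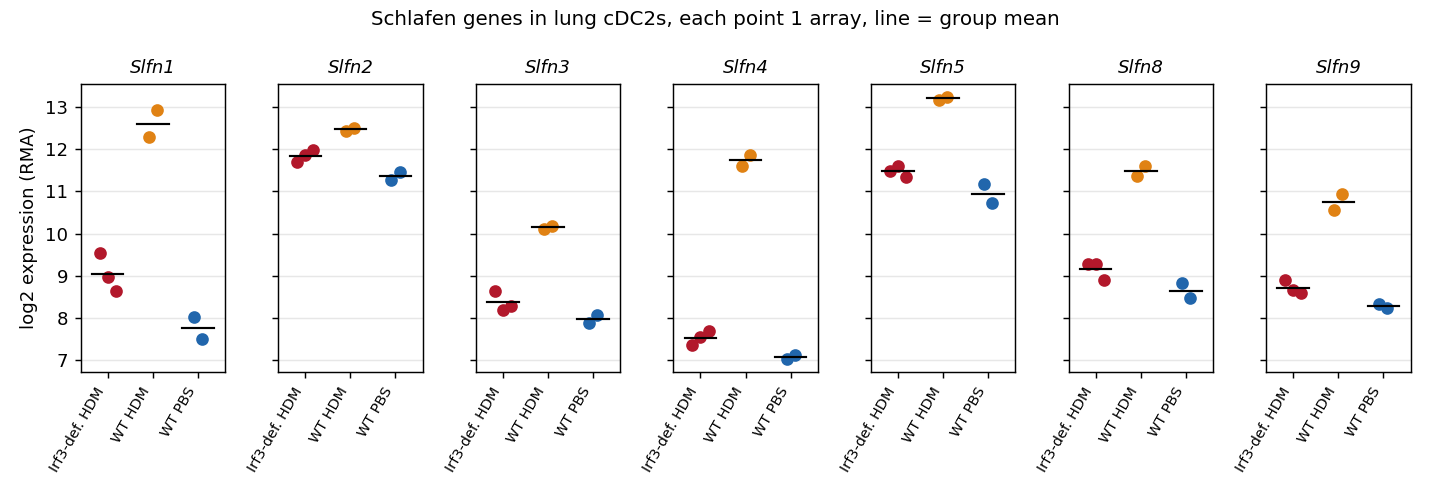
Log2 expression (y axis) of each schlafen gene in each array, 1 panel per gene, with Irf3-deficient HDM, wild type HDM and wild type PBS from left to right; points are arrays and lines are group means. In every panel the 2 wild type HDM arrays lie above all others, and the 3 Irf3-deficient arrays lie between them and the PBS arrays.

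Without Irf3 all 7 members were lower after the same HDM dose than in wild type, from 1.54-fold for Slfn2 to 18.4-fold for Slfn4. Over all genes 19.7% passed, 9% as lower and 10.7% as higher in Irf3-deficient cells. The median log2 difference of the 7 was -2.03, beside 0.00 over all genes, and for all 7 every Irf3-deficient array lay below every wild type array, which held for 20.5% of all genes, while 43.7% did not overlap in either direction. This comparison and the wild type response share the HDM-treated wild type arrays. The 2 sets of differences are therefore not independent, each member's values are given side by side, and no test relates them.

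Slfn4 measured 7.37, 7.54 and 7.69 in the Irf3-deficient arrays, against 11.60 and 11.87 in HDM-treated wild type. It fell by 4.20 ± 0.13 (SE, 95% CI for the fold 15.2 to 22.2, adjusted p = 1.9e-09), the lowest difference of all genes. Slfn1 measured 9.54, 8.97 and 8.65 in Irf3-deficient arrays, against 12.28 and 12.93 in HDM-treated wild type, and was 11.7-fold lower (95% CI 8.10 to 17.0, adjusted p = 7.82e-07). The groups stood apart by 3.90 for Slfn4 and by 2.74 for Slfn1.

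Slfn8 measured 9.28, 9.27 and 8.90 in Irf3-deficient arrays, against 11.36 and 11.60 in HDM-treated wild type, and was 5.02-fold lower (95% CI 4.02 to 6.27, adjusted p = 3.93e-07). Slfn9 measured 8.89, 8.66 and 8.60 in Irf3-deficient arrays, against 10.56 and 10.93 in HDM-treated wild type, and was 4.09-fold lower (95% CI 3.34 to 5.00, adjusted p = 5.49e-07). The genotypes were 2.08 apart for Slfn8 and 1.67 for Slfn9. Slfn3 measured 8.65, 8.20 and 8.29 in Irf3-deficient arrays, against 10.11 and 10.18 in HDM-treated wild type, and was 3.4-fold lower (95% CI 2.76 to 4.17, adjusted p = 2.16e-06). Slfn5 measured 11.49, 11.60 and 11.34 in Irf3-deficient arrays, against 13.17 and 13.24 in HDM-treated wild type, and was 3.32-fold lower (95% CI 2.74 to 4.02, adjusted p = 1.34e-06). Slfn2 differed least, at 11.70, 11.86 and 11.98 in Irf3-deficient arrays, against 12.42 and 12.51 in HDM-treated wild type. It was 1.54-fold lower (95% CI 1.31 to 1.80, adjusted p = 0.0011), and its groups were still 0.44 apart.

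Set against PBS-treated wild type cells, the HDM-treated Irf3-deficient cells had higher levels of 5 of 7 members, by 1.38-fold (Slfn4) to 2.46-fold (Slfn1). With single arrays left out the count ranged from 1 to 6. Over all genes 10.8% passed, 5.89% as higher and 4.91% as lower, and the median log2 difference was 0.48 for the 7 and 0.04 over all genes. For all 7 members the Irf3-deficient arrays lay entirely above the PBS arrays; over all genes 39.1% did not overlap, and 22% did so with the Irf3-deficient arrays on top. Genotype and treatment both differ here and cannot be told apart.

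Slfn1 was 2.46-fold higher (95% CI 1.70 to 3.56, adjusted p = 0.00501), at 9.05 ± 0.45 in Irf3-deficient (SD, n = 3) and 7.76 ± 0.36 in PBS-treated wild type arrays (SD, n = 2). It missed the threshold without replicate 2 of the PBS group, at 1.04 (adjusted p = 0.0735). Slfn2 was 1.40-fold higher (95% CI 1.19 to 1.64, adjusted p = 0.0113), and missed it without replicate 1 of the PBS group, at 0.39 (adjusted p = 0.155). Slfn5, Slfn8 and Slfn4 differed by 0.53, 0.50 and 0.46 (adjusted p = 0.0176, 0.0467 and 0.0347). Slfn4 was lost without either PBS array or without Irf3-deficient replicate 2 or 3, and Slfn8 without either PBS array or Irf3-deficient replicate 1 or 2. Slfn5 was lost without replicate 2 of either group; it differed by 0.31 (adjusted p = 0.174) without PBS replicate 2 and by 0.76 (adjusted p = 0.0111) without PBS replicate 1. Slfn8 differed by 0.33 (adjusted p = 0.281) without PBS replicate 2. Slfn9 and Slfn3 did not pass, at 0.43 (adjusted p = 0.0619) and 0.40 (adjusted p = 0.0847), and Slfn3 passed under 0 of 15 other settings.

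On the log2 scale, the Irf3-deficient mean of each member can be placed between the PBS (0) and HDM (100%) means of wild type. This position is no measure of a response in Irf3-deficient cells, whose level without HDM is unknown. The position is built from the wild type response and the difference between treated genotypes, which share the HDM-treated wild type arrays. It was 43.8% for Slfn2 and 9.93% for Slfn4. Leaving out 1 array at a time moved these to 37.6% to 50.6% and 8.23% to 11.7%. The position was 26.7% for Slfn1, 23.6% for Slfn5, 18.6% for Slfn3, 17.8% for Slfn8 and 17.5% for Slfn9, and with 1 array left out these 5 lay between 12.4% and 30.9%. Slfn2 stayed above and Slfn4 below the other 5, whose ranges overlapped except for those of Slfn1 (21.7% to 30.9%) and Slfn9 (13.9% to 19.9%). Differences between the positions were not tested. The position of Slfn4 rests on low values, which averaged 7.07 in PBS-treated wild type and 7.53 in Irf3-deficient arrays. The absence of a detection call limits these.

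**Figure D3:**
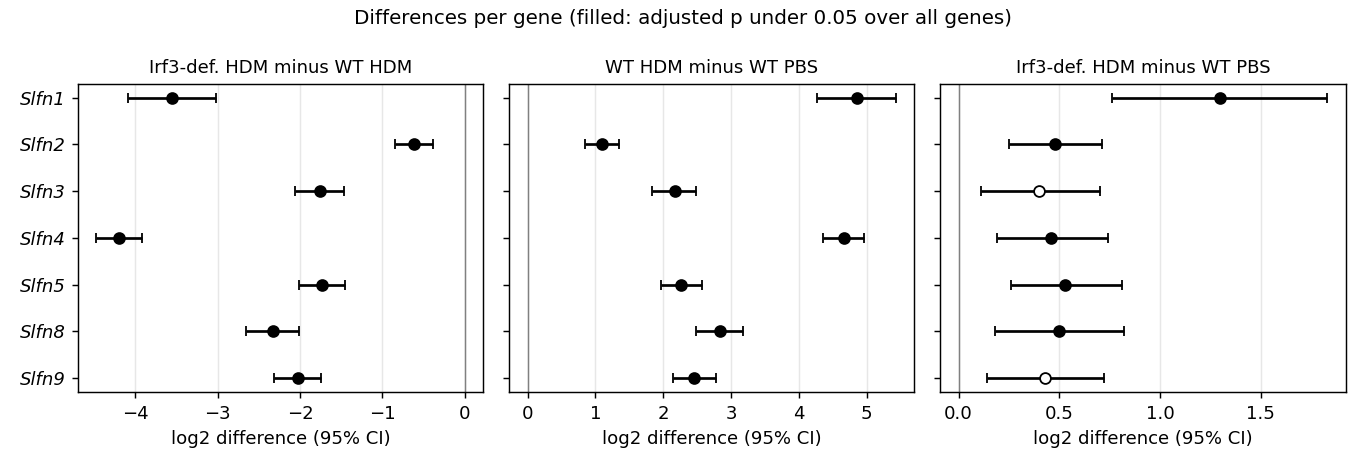
Log2 difference per member (x axis, with its own range in each panel) with its 95% confidence interval, for Irf3-deficient HDM minus wild type HDM, wild type HDM minus wild type PBS, and Irf3-deficient HDM minus wild type PBS from left to right; filled points passed the threshold. All 7 points are filled in the first and second panels, where Slfn1 and Slfn4 lie farthest from 0 and Slfn2 nearest, and 5 are filled in the third.

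Within a group, the members did not all order the arrays the same way. Both HDM-treated wild type arrays were ordered alike by all 7 genes, with replicate 2 above replicate 1 by 0.07 to 0.65, whereas 38.1% of all genes were higher in replicate 2. In the PBS group 3 of 7 were higher in replicate 2, beside 62.1% of all genes. Among Irf3-deficient arrays, replicate 1 was highest for Slfn1, Slfn3, Slfn8 and Slfn9, and lowest for Slfn2 and Slfn4. For Slfn8 replicates 1 and 2 were nearly equal, at 9.28 and 9.27. Over all genes, replicate 1 was highest for 34.5%, replicate 2 for 18.4% and replicate 3 for 47.2%.

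Markers of other cells also differed between the groups. Of 8 macrophage markers 6 fell and 1 rose in wild type after HDM, and 4 were higher and 2 lower in Irf3-deficient than wild type cells. Their average per array was 9.48 to 9.64 in Irf3-deficient, 9.29 to 9.42 in HDM-treated and 10.09 to 10.32 in PBS-treated wild type arrays. Fcgr1, which encodes the CD64 that the sort left out, was highest in HDM-treated wild type like the schlafen genes. It measured 8.99, 9.14 and 9.27 in Irf3-deficient, 10.61 and 10.99 in HDM-treated and 8.72 and 9.30 in PBS-treated wild type arrays. Of the 6 monocyte markers 4 were measured, and their averages were 10.26 to 10.63 in Irf3-deficient, 11.16 to 11.29 in HDM-treated and 10.74 to 11.14 in PBS-treated wild type arrays; in wild type Plac8 and Ms4a4c rose with HDM, by 2.82 and 1.36, while Ccr2 and F13a1 fell. In Irf3-deficient against HDM-treated wild type cells Plac8 and Ms4a4c were lower, at -2.68 (adjusted p = 2.68e-06) and -1.76 (adjusted p = 6.05e-07), Ccr2 was higher and F13a1 did not pass. T and NK cell markers averaged 7.01 to 7.13 in Irf3-deficient, 7.22 to 7.24 in HDM-treated and 7.04 to 7.17 in PBS-treated wild type arrays. Of these 10 markers 4 rose and 1 fell in wild type after HDM. Between the treated genotypes 2 were higher and 4 lower in Irf3-deficient cells. Cd8a was highest in HDM-treated wild type like the schlafen genes, at 8.45 on average in Irf3-deficient, 9.46 in HDM-treated and 8.05 in PBS-treated wild type arrays. Neutrophil markers averaged 7.08 to 7.24 in Irf3-deficient, 7.09 to 7.16 in HDM-treated and 6.96 to 7.17 in PBS-treated wild type arrays. B cell and plasmacytoid markers averaged 7.45 to 7.54 in Irf3-deficient, 6.98 to 7.12 in HDM-treated and 7.03 to 7.16 in PBS-treated wild type arrays, but they did not move together. Ccr9 measured 9.28, 9.25 and 9.54 in Irf3-deficient, 6.59 and 6.91 in HDM-treated and 6.81 and 6.84 in PBS-treated wild type arrays, whereas Ms4a1 was lower in Irf3-deficient than in HDM-treated wild type cells (5.95 and 6.84 on average). Epithelial markers were at 10.43 to 10.62 in Irf3-deficient, 10.27 to 10.77 in HDM-treated and 10.94 to 11.13 in PBS-treated wild type arrays, and they too did not move together. Epcam averaged 10.8 in Irf3-deficient, 9.02 in HDM-treated and 9.96 in PBS-treated wild type arrays. Sftpc averaged 11.98 in Irf3-deficient, 12.51 in HDM-treated and 13.09 in PBS-treated wild type arrays. Scgb1a1 measured 13.57 and 11.64 in the HDM-treated wild type arrays. Markers of the other conventional subset, cDC1, were at 9.51 to 9.77 in Irf3-deficient, 9.79 to 10.06 in HDM-treated and 9.61 to 9.95 in PBS-treated wild type arrays. Of these 6 markers 2 rose and 2 fell in wild type after HDM, and 1 was higher and 2 lower in Irf3-deficient than in HDM-treated wild type cells. Irf8 averaged 11.4 in Irf3-deficient, 12.6 in HDM-treated and 10.99 in PBS-treated wild type arrays. The part of such cells in the schlafen values was not tested, and in these bulk samples more cells with a transcript and more transcript per cell cannot be told apart.

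The genes around the cluster were read in the same fit. Of 16 measured genes flanking the members, 8 on each side, 3 rose in wild type after HDM and none fell; Slfn10-ps, which lies inside the cluster, made the fourth of 17. Among the 16 flanking genes, the 2 with the smallest p were at the far end, beyond 6 genes that did not pass. Heatr9 measured 9.99 on average in HDM-treated and 7.25 in PBS-treated wild type (difference 2.74, adjusted p = 3.01e-08), and Ccl5, the chemokine RANTES, 14.28 in HDM-treated and 13.02 in PBS-treated wild type (difference 1.26, adjusted p = 1.38e-06). Ap2b1, the clathrin adaptor subunit gene next to Slfn3, and Unc45b, a muscle chaperone gene on the other side beyond Slfn5os and Unc45bos, did not pass, at 0.21 (adjusted p = 0.176) and 0.18 (adjusted p = 0.367).

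In Irf3-deficient against HDM-treated wild type cells, Heatr9 and Ccl5 were lower, at -2.22 (adjusted p = 1.01e-07) and -1.55 (adjusted p = 1.56e-07). On the other side of the cluster, the ubiquitin ligase gene Rffl and the DNA ligase gene Lig3 were higher, at 0.62 (adjusted p = 0.000887) and 0.34 (adjusted p = 0.0457). Of the 17 genes that are no members, 2 were higher and 3 lower, and their median difference was -0.01.

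**Figure D4:**
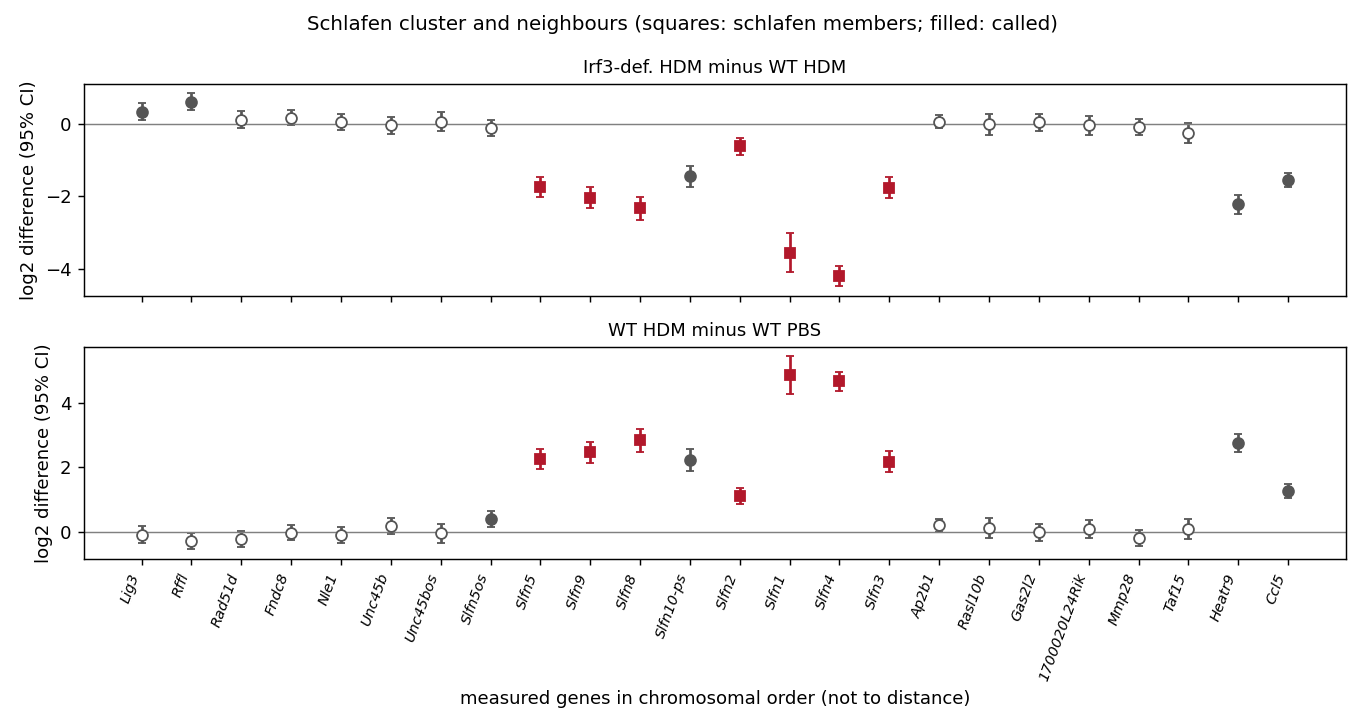
Log2 difference (y axis) with its 95% confidence interval for the measured genes of the cluster and 8 on either side, in chromosomal order on the x axis (not to distance). The upper panel is Irf3-deficient HDM minus wild type HDM and the lower panel wild type HDM minus wild type PBS; squares are the 7 members, circles other genes, and filled symbols passed, so that the members and Slfn10-ps form an unbroken block away from 0.

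The interferon pathway above the schlafen genes was read from 13 measured genes. In wild type after HDM 8 rose and 0 fell (median 1.01). Of its ligands, Ifnb1 and Ifna4 rose by 1.28 and 0.99. Both had low values, averaging 7.82 and 7.13 in HDM-treated and 6.53 and 6.14 in PBS-treated wild type arrays. Without a detection call, it is unknown whether these lie above background. The receptor chains Ifnar1 and Ifnar2 and kinases Jak1 and Tyk2 did not pass, at -0.29, -0.04, 0.03 and 0.22. Of its factors, Irf7 rose by 4.04 (adjusted p = 5.14e-09), Stat2 by 2.32 (adjusted p = 7.3e-08), Irf9 by 1.12 and Irf1 by 1.01. The feedback genes Usp18 and Socs1 rose by 2.76 and 1.29. In Irf3-deficient against HDM-treated wild type cells, 10 of 13 were lower, among them Irf3 itself, and 1 was higher, Ifnar1 at 0.33. Irf7 differed by -2.99 (adjusted p = 3.31e-08), Usp18 by -2.18 (adjusted p = 3.61e-07), Stat2 by -1.92 (adjusted p = 2.08e-07) and Ifnb1 by -1.39 (adjusted p = 3.62e-05).

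Of 24 measured interferon-stimulated genes outside the family, 24 rose in wild type (median 3.01) and 24 were lower in Irf3-deficient cells (median -2.24), beside schlafen medians of 2.46 and -2.03. Against PBS-treated wild type, 23 of 24 were higher in Irf3-deficient cells, with a median of 0.86 beside 0.48 for the schlafen genes.

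For each member the genes outside the family with the closest profile were found by the root mean square difference over the 7 arrays, after each gene was centred on its own mean. Slfn1 was closest to Ifit2, Ifit3b and Ifi213, at 0.28, 0.29 and 0.33 log2 units, where the median gene lay 1.94 away. Slfn4 was closest to Ifi206, Apod and Ifi208, at 0.36, 0.45 and 0.53. Slfn5 lay 0.07 from Eif2ak2, the gene of the RNA-sensing kinase PKR, 0.08 from Zup1 and 0.10 from Ifih1, the gene of the RNA sensor MDA5. Slfn8 lay 0.11 from Phf11d, 0.12 from Usp18 and 0.13 from Ddx60, and Slfn3 lay 0.09 from Stat2, 0.11 from Ildr1 and 0.12 from Tmem171. Slfn9 lay 0.12 from Il18bp, an inhibitor of interleukin 18, and 0.13 from 4930599N23Rik and Mov10. Slfn2 lay 0.08 from each of Cflar, an inhibitor of apoptosis, Poglut1 and Ccnd2, the gene of cyclin D2. The median distance of Slfn2 to all genes was 0.43. The genes named were picked as the closest of all, so their place below the median distance was fixed by the choice. Profiles were not scaled, so a close gene must also change by a similar amount. In wild type after HDM Slfn2 rose by 1.1, and Cflar, Poglut1 and Ccnd2 rose by 1.12, 1.13 and 1.16.

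Within the family, Slfn3, Slfn5, Slfn8 and Slfn9 lay 0.18 to 0.34 log2 units from one another by the same measure, which also depends on the size of the change. Slfn1 and Slfn4 were 0.53 apart, and Slfn2 was 0.54 to 1.61 from every other member.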

How the data were processed

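Gene expression was measured on 7 arrays, and the deposited values are log2 expression per probeset. Per the submitters' processing notes, the tools named are RMA, oligo and R 3.2.1, with no roles. RMA usually includes quantile normalisation, under which a change shared by most genes could not be seen. No detection call, scan date or genome build is given in the sources used here. Array medians lay between 7.60 and 7.69, and the number of arrays limits the precision.

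Of 35556 probesets, 21789 carried 1 symbol in the platform annotation, 1621 several and 12146 none. Symbols were updated through Entrez identifiers in the RefSeq table of GRCm38.p6, which matched 19856 of 19938 genes, and the brightest probeset per gene was kept. The linear model of limma 3.58.1 (R 4.3.3) took a mean for each of the 3 groups over the 7 arrays, with variances moderated by eBayes along an intensity trend (4 residual and 8.34 prior degrees of freedom). Tests were two-sided and adjusted over all genes at 0.05; the code was tested on simulated data. The labels describe separate pools, so p-values measure the spread between pools. Errors are SE of the fit, SD between arrays or 95% confidence intervals.

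Members, lists and tests were chosen with earlier results of these data known. Named genes are the members, Irf3, all other Slfn symbols, up to 4 pathway genes and 2 flanking genes per direction by smallest p, the 3 closest profiles per member, and pathway genes by role. The cell markers, Ap2b1 and Unc45b were named after their values were seen. Promoters came from RefSeq; no protein sequences were used here. Alternatives were a replicate block, median centring, no trend, robust variances, a filter on dim genes, averaged probesets, all probesets, 2 groups only and each array left out.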

Additional observations from a re-analysis of the deposited data

Results flagged for a closer look

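Probesets of 3 further Slfn symbols lay outside the member list, and 2 of them carried signal above the PBS arrays. Slfn10-ps, whose name marks it as a schlafen pseudogene, measured 8.86, 8.74 and 8.70 in Irf3-deficient, 10.04 and 10.38 in HDM-treated wild type and 8.16 and 7.81 in PBS-treated wild type arrays. It rose by 2.22 in wild type (adjusted p = 4.8e-07), was lower in Irf3-deficient than in HDM-treated wild type cells, at -1.44 (adjusted p = 1.17e-05), and higher than in PBS-treated wild type, at 0.78 (adjusted p = 0.00312). Slfn5os, a long noncoding gene that overlaps Slfn5 in the RefSeq table, measured 7.44, 7.25 and 7.33 in Irf3-deficient, 7.58 and 7.32 in HDM-treated wild type and 7.04 and 7.07 in PBS-treated wild type arrays. It rose by 0.40 (adjusted p = 0.0361) and did not pass between the treated genotypes, at -0.11 (adjusted p = 0.587). Slfnl1, a distant relative on chromosome 4, did not pass in any of the 3 comparisons.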

How the results depend on the processing

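All 7 members kept their call and direction in the wild type response under 16 other settings and between the treated genotypes under 15. Against PBS-treated wild type, no member changed direction in Irf3-deficient cells, but the count of 5 became 2 with all probesets tested and 3 with arrays centred on their median, and ranged from 1 to 6 with single arrays left out (1 without PBS replicate 2, and 2 without PBS replicate 1 or without Irf3-deficient replicate 2). The cause was not tested. With robust variances Slfn1 did not pass there (adjusted p = 0.0574). Of 105 single-member values in that comparison, 82 kept their side of the threshold, 19 lost it and 4, all of Slfn9, gained it. The labels do not say whether same-numbered arrays were handled together. Deviations of same-numbered arrays correlated at -0.233 between the wild type groups, and at -0.031 and -0.025 between the treated genotypes. Between Irf3-deficient and PBS arrays they correlated at 0.178 (number 1) and -0.09 (number 2). With 2 arrays per wild type group, the value between these groups is the same for both numbers by construction. These correlations cannot settle whether the numbers mark a shared batch. With the replicate block 7, 7 and 4 members passed, and Slfn4 stood at 0.38 against PBS (adjusted p = 0.108); crossed numbers, added after seeing the data, gave 7 members and 3361 genes in the wild type response. Over all genes, the called number was 1426 with the replicate block against 2153 for Irf3-deficient against PBS-treated wild type, and 749 without PBS replicate 1 and 1377 without Irf3-deficient replicate 2. Without HDM-treated wild type replicate 2 it was 2333 against 3505 in the wild type response and 2562 against 3932 between the treated genotypes. Groups of 2 and 3 pools and the absence of a detection call limit low values, such as Slfn4 in PBS-treated arrays.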
